A study of Mus musculus with 6 samples.

Results

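The neuromuscular junction genes are the 10 genes *Chrna1*, *Chrnb1*, *Chrnd*, *Chrne*, *Chrng*, *Agrn*, *Lrp4*, *Musk*, *Dok7* and *Rapsn*. They were found by an exact match of the gene symbol in the deposited normalized table, where all 10 were present among 16247 genes, and were joined by gene identifier to the raw count table of 51912 genes. Their transcripts were compared by RNA-seq in the soleus, a slow-twitch-rich calf muscle, of 3 *Mustn1* KO-first heterozygous (HET) mice and 3 wild-type (WT) littermates, with 1 library per mouse. All 6 mice were C57BL6/N, 8 weeks old and labelled male. HET mice carried 1 KO-first allele of *Mustn1* in the whole body, in which the first exon is meant to be spliced into a lacZ trapping cassette, so that 1 intact allele remained in each cell. The comparison asked whether transcripts of the nerve-muscle synapse differed in HET soleus.

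At the neuromuscular junction, acetylcholine released from a motor nerve ending opens a pentameric receptor in the muscle membrane and so triggers contraction. The adult receptor is built from the alpha, beta, delta and epsilon subunits encoded by *Chrna1*, *Chrnb1*, *Chrnd* and *Chrne*, and the fetal receptor carries the gamma subunit encoded by *Chrng* in place of epsilon. Agrin (*Agrn*) secreted by the nerve binds Lrp4, which activates the muscle kinase MuSK together with the adaptor Dok7, and the scaffold protein rapsyn (*Rapsn*) then gathers the receptors under the nerve ending. Only a few nuclei of a fiber lie beneath the junction and transcribe most of these genes, and after denervation nuclei along the whole fiber transcribe several of them, including *Chrna1*, *Chrng* and *Musk*.

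The upstream sequences of 4 members are shown because E-boxes and N-boxes near the start are known control elements of junction genes. E-boxes (CANNTG) are bound by myogenic factors such as MyoD and myogenin, and the N-box core (CCGGAA, searched on both strands like the other motifs) is bound by Ets factors. Each stretch runs 5′ to 3′ on the gene's own strand from 180 to 31 bases before the RefSeq start in build GRCm38.p6, and capitals mark every CANNTG or CCGGAA. The stretch of *Chrne* is chr11:70619225-70619374 on the minus strand, that of *Chrng* chr1:87205631-87205780 on the plus strand, that of *Chrna1* chr2:73580369-73580518 on the minus strand, and that of *Musk* chr4:58285782-58285931 on the plus strand. In GENCODE M21 none of them touched an exon. The *Chrng* stretch lay in an intron of a longer *Chrng* transcript, and the others lay outside annotated genes.
Chrne: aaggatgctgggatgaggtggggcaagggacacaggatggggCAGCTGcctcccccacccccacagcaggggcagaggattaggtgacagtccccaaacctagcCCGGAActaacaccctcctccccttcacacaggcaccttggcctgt
Chrng: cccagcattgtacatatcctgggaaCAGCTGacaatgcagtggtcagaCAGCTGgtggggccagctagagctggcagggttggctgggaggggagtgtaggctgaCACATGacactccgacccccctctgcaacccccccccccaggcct
Chrna1: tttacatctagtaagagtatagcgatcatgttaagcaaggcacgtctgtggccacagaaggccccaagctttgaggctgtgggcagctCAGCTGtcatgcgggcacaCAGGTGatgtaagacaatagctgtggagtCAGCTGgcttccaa
Musk: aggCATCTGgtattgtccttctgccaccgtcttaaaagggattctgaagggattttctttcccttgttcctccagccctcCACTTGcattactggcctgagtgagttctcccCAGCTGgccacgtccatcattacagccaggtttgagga

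RefSeq windows from 250 bases before to 50 bases after a start were at hand for 7 of the 10 members, with *Agrn* and *Dok7* having a pair each. *Chrnd*, *Rapsn* and *Lrp4* had none. The N-box core was present in the window of *Chrne*, between 76 and 71 bases before the start, and in no other member's window, while 14.9% of all 32851 windows held it. CAGCTG, a form of CANNTG and so counted under both, was found 2 times each in the windows of *Chrng* and *Chrna1* and 1 time each in those of *Musk* and *Chrne*, against 16.3% of all windows with at least 1 match. Any CANNTG was found 3 times each in the windows of *Chrng*, *Chrna1*, *Musk* and *Chrnb1*, 1 time in that of *Chrne* and 1 time in a window each of *Agrn* and *Dok7*, and 72.3% of all windows held at least 1. A match describes the letters of these windows and no more.

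The libraries held between 26790075 and 50368796 reads on genes, and 14696 genes passed the filter on low counts. The labelled genotype was checked on *Mustn1*, which was read at 12.6, 16.8 and 13.1 CPM (counts scaled by edgeR's TMM library sizes) in HET mice 1 to 3 and at 23.1, 29.0 and 30.5 CPM in WT mice 1 to 3. The fitted log2 difference was −0.96 ± 0.15 (standard error) with an edgeR adjusted p of 0.0452, which was at or above 0.05 when HET mouse 1 or 3 or WT mouse 1 or 2 was left out. Against the label of the mice as male, *Xist* had at least 3858 and at most 9154 reads in a library, and the Y-linked genes *Ddx3y*, *Kdm5d*, *Uty* and *Eif2s3y* together had at most 12. The markers of slow fibers summed to between 39568 and 42408 CPM in HET and between 40479 and 45124 CPM in WT mice, with every one of the 8 detected.

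None of the 10 junction genes passed an adjusted p of 0.05 in edgeR's quasi-likelihood test, where 0.15% of all genes tested did, and none did with DESeq2 or limma-voom. At an unadjusted p under 0.05, 2 of the 10 passed in edgeR, against 7.76% of all genes. Both of these, *Chrna1* and *Chrne*, were lower in HET mice, a direction in which 2.0% of all genes passed. DESeq2 and limma-voom also had 2 at that level. Which genes passed it depended on single mice: none did without HET mouse 1, HET mouse 3 or WT mouse 1, only *Chrna1* did without WT mouse 3, only *Chrne* did without WT mouse 2, and *Rapsn* joined them without HET mouse 2. With library size as the only scaling, none passed. The HET and WT values overlapped for all 10 members, whereas they did not for 13.6% of all genes. The fitted log2 fold change was below 0 for 7 of the 10, with a median of −0.10 beside −0.02 over all genes tested, where 54.4% were below 0. Lists of markers for slow fibers, fast fibers and satellite cells had medians of −0.08, −0.17 and −0.22, so a value below 0 was not particular to the junction genes.

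Among the receptor subunits, the alpha subunit gene *Chrna1* encodes the chain that forms most of the acetylcholine binding site. HET mice 1 to 3 had 1596, 1274 and 1829 reads on it and WT mice 1 to 3 had 1652, 1564 and 2332, which gave 42.6, 47.5 and 41.7 CPM against 55.3, 55.5 and 47.2 CPM. HET mice 1 and 3 lay below every WT mouse, and HET mouse 2 lay just above WT mouse 3. The means were 43.9 ± 3.11 CPM (SD, n = 3) in HET mice, and 52.7 ± 4.69 CPM for the 3 WT mice. The fold change was 0.834 (95% confidence interval 0.716 to 0.972), with a log2 standard error of 0.10, an edgeR p of 0.0242 and an adjusted p of 0.498. Over 17 alternative fits its log2 fold change stayed between −0.33 and −0.19 and its adjusted p was at least 0.306.

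*Chrne*, the adult epsilon subunit, was read 281, 218 and 258 times in HET and 300, 229 and 471 times in WT mice, or 7.51, 8.12 and 5.88 CPM against 10.03, 8.12 and 9.54 CPM. HET mouse 2 and WT mouse 2 had nearly the same value, and the other HET mice lay below all WT mice. HET mice averaged 7.17 ± 1.16 CPM and WT mice 9.23 ± 0.993 CPM (SD, n = 3 each). This was the lowest fold change of the 10 members, 0.773 with a 95% confidence interval of 0.607 to 0.985. The edgeR p was 0.0395 and the adjusted p 0.607, which was at least 0.435 in each of the alternatives.

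*Chrng*, the fetal gamma subunit, was near the limit of detection, with 24, 11 and 36 reads in HET and 19, 11 and 12 reads in WT mice. In CPM these were 0.641, 0.410 and 0.820 in HET against 0.635, 0.390 and 0.243 in WT mice. HET mouse 3 was the highest and WT mouse 3 the lowest, and mice 1 and 2 of the genotypes were alike. The fold change of 1.55 had a 95% confidence interval from 0.783 to 3.07, the widest of the members (edgeR adjusted p = 0.852). The coefficient of variation was 33.0% between HET mice and 46.9% between WT mice, where counting alone would give 20.6% and 26.7%.

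The beta and delta subunits had fitted values nearer 0. *Chrnb1* was at 33.0, 31.6 and 36.3 CPM in HET mice and at 36.5, 37.1 and 34.4 CPM in WT mice, so that HET mouse 3 lay inside the WT range and the other HET mice below it. Its fold change was 0.935 (95% confidence interval 0.810 to 1.08, edgeR adjusted p = 0.891). *Chrnd* was at 10.3, 8.87 and 8.45 CPM in HET mice and at 10.4, 7.59 and 10.05 CPM in WT mice, with the lowest of the 6 values in WT mouse 2. Its fold change was 0.982 (95% confidence interval 0.775 to 1.24, edgeR adjusted p = 0.984), and the fitted direction turned in 6 of the 17 alternatives.

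**Figure D1:**
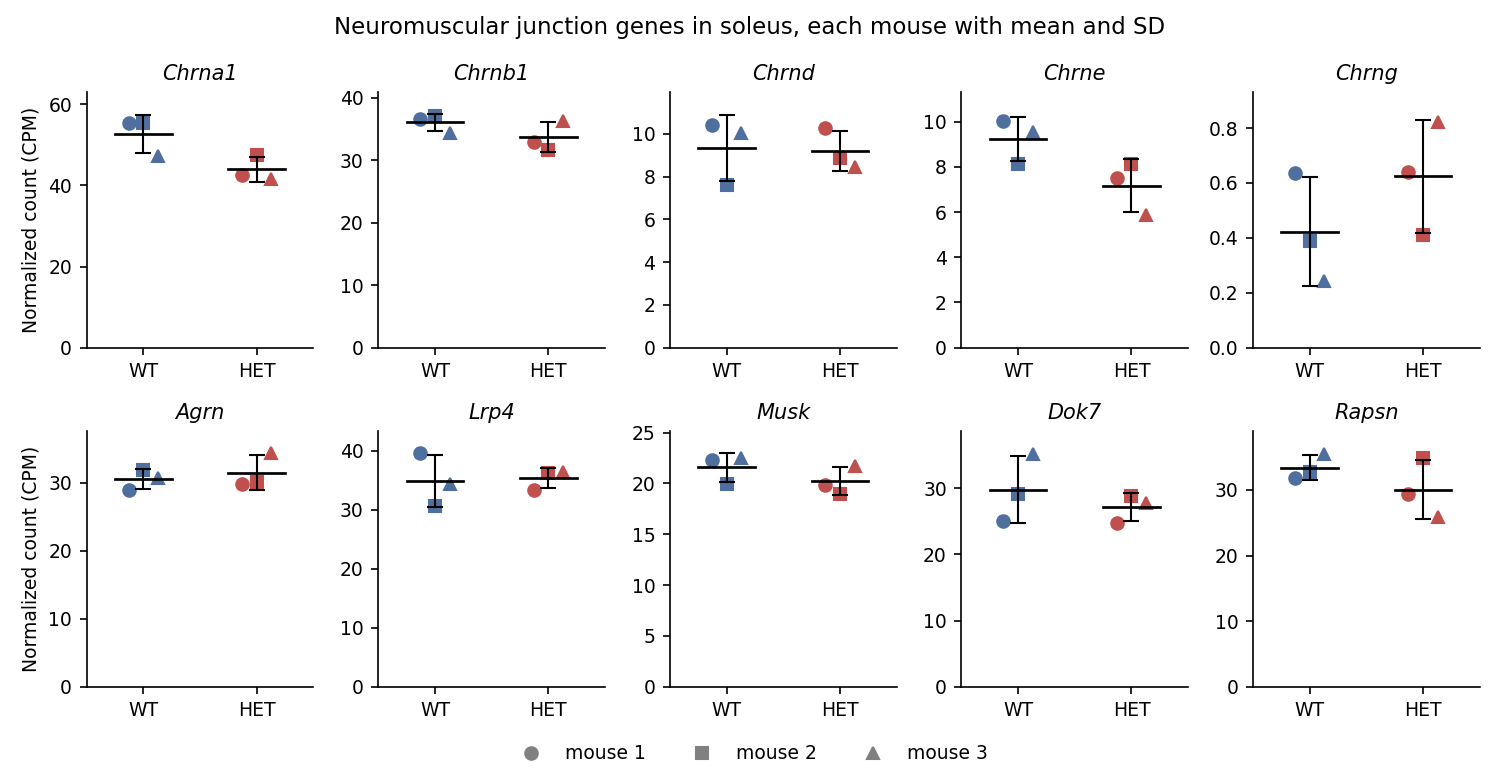
Normalized count (CPM, linear axis from 0) of each junction gene in each of the 3 WT (blue) and 3 HET (red) mice, with the symbol giving the mouse number and the black line and bar the mean ± SD. For *Chrna1* and *Chrne* 2 HET mice lie below all WT mice and HET mouse 2 does not, and the genotypes overlap in all 10 panels.

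Summed over the 5 subunits, the CPM lay at 94.0, 96.5 and 93.1 in HET mice and at 113, 109 and 101 in WT mice. These sums did not overlap, whereas the genotypes overlapped for each subunit alone. Among all single genes, 13.6% did not overlap. Sums of some other lists did not overlap either, such as satellite cell markers (113 to 120 CPM in HET, 127 to 134 CPM in WT mice). About as much of the subunit sum came from *Chrna1* as from the other subunits together, and the sum was not tested. In RNA from whole muscle, the number of synaptic nuclei, the RNA per nucleus and the mix of cell types cannot be told apart.

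The balance of adult to fetal subunit can be read within a library, without any scaling factor. Of the reads on *Chrne* and *Chrng* together, *Chrne* took 92.1% in HET mouse 1 (exact Clopper-Pearson 95% interval 88.5 to 94.9), 95.2% in HET mouse 2 (91.6 to 97.6) and 87.8% in HET mouse 3 (83.5 to 91.3). In WT mice 1 to 3 it took 94.0% (90.9 to 96.4), 95.4% (91.9 to 97.7) and 97.5% (95.7 to 98.7). These intervals cover counting error only. The interval of HET mouse 3 lay below those of HET mouse 2 and WT mice 2 and 3, that of HET mouse 1 lay below that of WT mouse 3, and all other pairs overlapped. Divided by the exon length of each gene, *Chrne* made up 96.4 ± 1.69% in HET and 98.2 ± 0.746% in WT mice (SD, n = 3 each). The difference of −1.76 percentage points had a two-sided exact permutation p of 0.2, where 0.1 is the smallest that 3 mice against 3 can give, and it ranged from −2.54 without HET mouse 2 to −0.86 without HET mouse 3. Epsilon thus outnumbered gamma in all 6 libraries.

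The composition of the receptor transcripts was also compared over all 5 subunits per exon length. *Chrnb1* held 43.6 ± 3.69% of the subunit transcripts in HET and 41.1 ± 1.35% in WT mice, *Chrna1* 32.8 ± 1.88% and 34.6 ± 2.06%, *Chrne* 13.9 ± 2.08% and 15.8 ± 1.64%, *Chrnd* 9.17 ± 0.932% and 8.21 ± 1.34%, and *Chrng* 0.493 ± 0.169% and 0.290 ± 0.123% (SD over 3 mice). The two-sided exact permutation p-values of the 5 differences lay between 0.2 and 0.5, and each was 0.5 after Benjamini-Hochberg adjustment over the 5 subunits. With 3 mice against 3, this test could not reach 0.05.

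**Figure D2:**
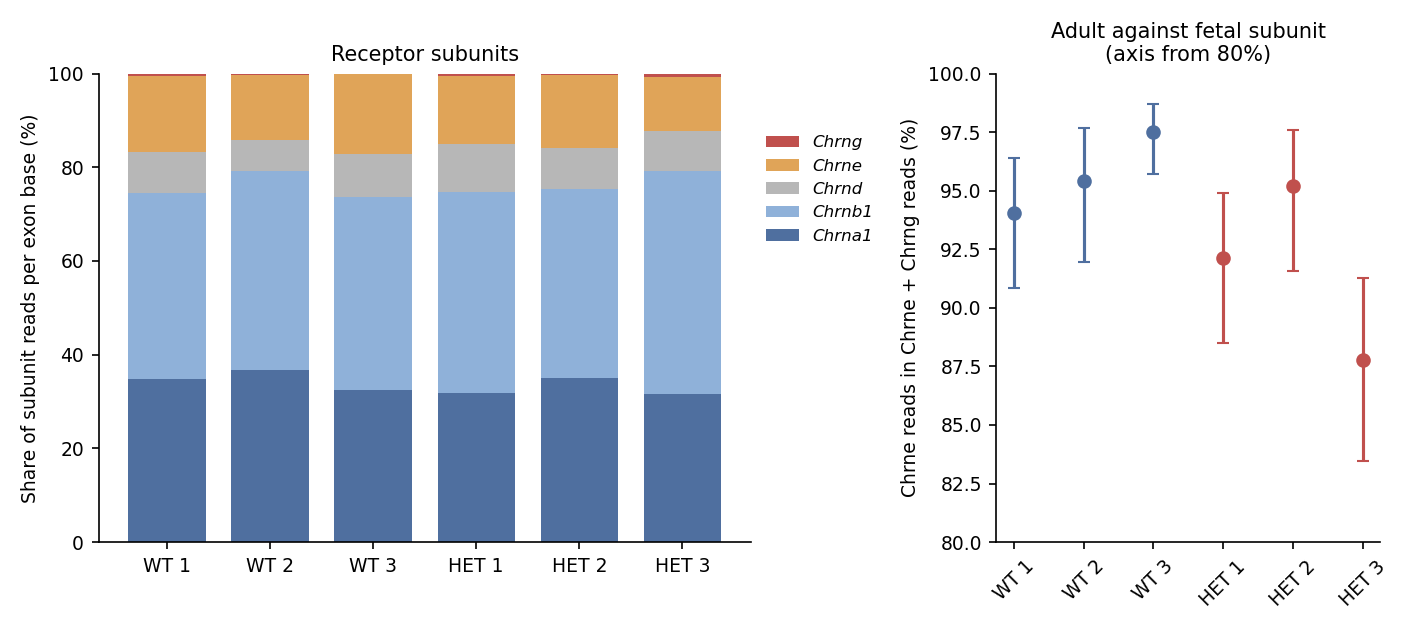
Left, share of each receptor subunit in the reads per exon base of the 5 subunits (%, bars from 0) for each mouse. Right, *Chrne* as a percentage of *Chrne* plus *Chrng* reads for each mouse with its exact 95% interval, on an axis that starts at 80%; HET mouse 3 is the lowest at 87.8% and WT mouse 3 the highest at 97.5%.

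The 5 genes of the clustering pathway had fitted log2 fold changes between −0.15 and 0.04. Agrin is made by the motor neuron and, in another splice form, by muscle, and *Agrn* was read at 29.8, 30.1 and 34.4 CPM in HET and 28.9, 31.8 and 30.7 CPM in WT mice. HET mouse 3 was the highest and the other HET mice lay within the WT range. The fold change was 1.03 (95% confidence interval 0.888 to 1.20, edgeR adjusted p = 0.964). The agrin receptor gene *Lrp4* was at 33.4, 36.3 and 36.4 CPM in HET mice, all inside the WT values of 39.6, 30.7 and 34.4 CPM, with a fold change of 1.01 (95% confidence interval 0.857 to 1.20, edgeR adjusted p = 0.984).

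*Musk*, the receptor tyrosine kinase on which the junction depends, was at 19.9, 19.0 and 21.7 CPM in HET and at 22.3, 19.9 and 22.5 CPM in WT mice. HET mice 1 and 2 lay below all WT mice and HET mouse 3 among them. Its fold change was 0.936 (95% confidence interval 0.798 to 1.10, edgeR adjusted p = 0.911). *Dok7*, which docks on MuSK inside the cell, was at 24.8, 28.8 and 27.8 CPM in HET and at 25.1, 29.2 and 35.2 CPM in WT mice, where WT mouse 3 stood above the rest. The fold change of 0.909 (95% confidence interval 0.745 to 1.11, edgeR adjusted p = 0.890) came with a log2 value of −0.14, which was 0.0014 without that mouse.

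*Rapsn*, whose protein binds receptor and cytoskeleton, was at 29.4, 34.9 and 25.9 CPM in HET and at 31.9, 32.7 and 35.5 CPM in WT mice. HET mice 1 and 3 were below all WT mice and HET mouse 2 was within their range, as for *Chrna1* and *Chrne*. Across genes, the counts of HET mouse 2 also differed more from those of HET mice 1 and 3 (chi-square per gene 42.5 and 46.8). Between HET mice 1 and 3 it was 17.8, and between WT mice it ran from 16.5 to 26.9. The part of this in the junction genes was not tested. HET mice averaged 30.1 ± 4.52 CPM and WT mice 33.4 ± 1.89 CPM (SD, n = 3 each), with a fold change of 0.899 (95% confidence interval 0.750 to 1.08, edgeR adjusted p = 0.863). Summed over the 5 genes of the pathway, the CPM was between 137 and 149 in HET and between 144 and 158 in WT mice, which overlapped.

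**Figure D3:**
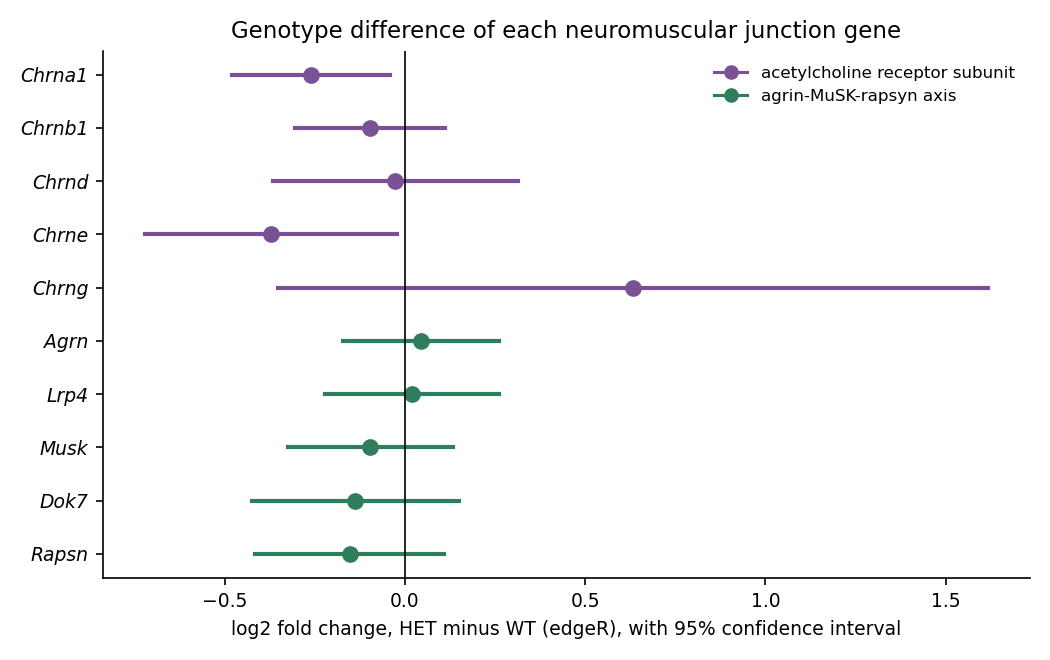
Fitted log2 fold change of HET minus WT for each junction gene (point) with its 95% confidence interval (line) from edgeR. The intervals of *Chrna1* (−0.48 to −0.04) and *Chrne* (−0.72 to −0.02) lie below 0 before any adjustment for the number of genes, and the other 8 include 0.

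The intervals show how large a difference these 6 libraries could have left unseen. For the 5 genes of the clustering pathway, no unadjusted interval of the fold change went below 0.745 or above 1.20, and for *Chrnd* the interval ran from 0.775 to 1.24. The spread between mice was larger than counting error for all 10 members in both genotypes. Without *Chrng*, the coefficient of variation lay between 3.94% for *Chrnb1* in WT mice and 17.1% for *Dok7* in WT mice, while counting alone gave between 2.33% for *Chrna1* in WT mice and 6.30% for *Chrne* in HET mice.

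Levels can be compared between genes only per length. In RPKM (CPM per kilobase of exon, over all 6 mice), *Rapsn* was the highest at 17.6 ± 1.99 (SD, n = 6), followed by *Chrnb1* at 13.8 ± 0.865 and *Chrna1* at 11.01 ± 1.36. *Dok7* at 6.66 ± 0.880, *Musk* at 5.53 ± 0.388 and *Chrne* at 4.85 ± 0.879 followed. *Lrp4* at 3.34 ± 0.288, *Agrn* at 3.33 ± 0.210 and *Chrnd* at 2.82 ± 0.347 were lower, and *Chrng* was at 0.126 ± 0.0508. Among neighbours in this order, the ranges over the 6 mice were apart between *Chrna1* and *Dok7* and between *Chrnd* and *Chrng*, and overlapped in the other 7 cases. By all exon bases, the scaffold and the beta and alpha subunits therefore stood above the rest. The epsilon transcript stood above the delta transcript, with the lowest *Chrne* value of 3.48 RPKM over the highest *Chrnd* value of 3.16 RPKM. The order was the same with the length of the longest coding transcript in place of all exon bases. At that length the mean of *Dok7* was 10.2 RPKM, inside the *Chrna1* range of 9.50 to 12.6 RPKM. The gap between *Chrna1* and *Dok7* thus depended on the length used.

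**Figure D4:**
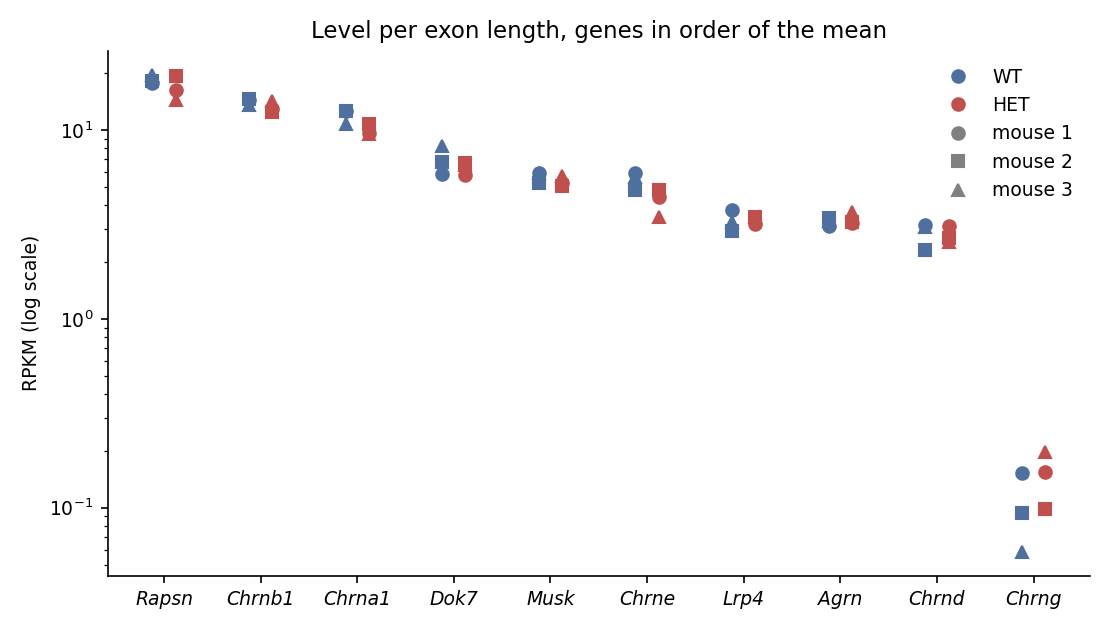
Level of each junction gene per exon length (RPKM, log axis) in each of the 3 WT (blue) and 3 HET (red) mice, genes in order of their mean over the 6 mice. *Rapsn* leads at a mean of 17.6 and *Chrng* stands far below the others at 0.126.

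The members were counted separately from each other and from neighbouring genes. In build GRCm38, *Chrnd* (chr1:87190607-87200070, plus strand) and *Chrng* (chr1:87204657-87212694, plus strand) lie 4586 bases apart. *Chrnb1* (chr11:69784036-69795943, minus strand) and *Chrne* (chr11:70614883-70619216, minus strand) lie 818939 bases apart, and *Rapsn* (chr2:91035620-91045729, plus strand) and *Lrp4* (chr2:91457511-91513779, plus strand) 411781 bases apart. The remaining members are *Chrna1* (chr2:73563215-73580338, minus strand), *Musk* (chr4:58285960-58374303, plus strand), *Agrn* (chr4:156165290-156197488, minus strand) and *Dok7* (chr5:35056766-35087839, plus strand). No exon of a member overlapped an exon of another gene on the same strand, and *Rapsn* shared 4 bases with *Gm13778* on the opposite strand. The longest identical run between the transcripts of any pair of subunits was 24 bases, for *Chrnb1* and *Chrne*, which is shorter than the reads of 50 bases.

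Other genes of the synapse were read from a list of 30 genes for the synaptic matrix, the dystrophin complex, neuregulin signalling and the Ets factors, of which 29 were tested. None passed the adjusted p of 0.05 in edgeR, DESeq2 or limma-voom, and at an unadjusted p under 0.05 edgeR had 1 higher and 1 lower. The median log2 fold change was −0.04. The lower gene was *Dtna*, alpha-dystrobrevin of the postsynaptic scaffold, at 116, 106 and 105 CPM in HET and 135, 124 and 124 CPM in WT mice, with a log2 fold change of −0.22 (edgeR adjusted p = 0.488). The higher gene was *Etv4*, an Ets factor, at 8.92, 9.02 and 8.61 CPM in HET and 6.46, 7.55 and 7.42 CPM in WT mice, with a log2 fold change of 0.31 (edgeR adjusted p = 0.595). The genotypes did not overlap for 4 of the 29 genes, *Dtna*, *Etv4*, *Lamb2* and *Wnt4*, beside 13.6% of all genes. The next smallest p-values belonged to *Lamb2*, the synaptic laminin beta2 chain (log2 fold change 0.21), *Sntb2* (0.27), *Wnt4* (−0.31) and *Erbb2* (0.31), with edgeR adjusted p-values between 0.700 and 0.818. *Ache*, acetylcholinesterase, had a log2 fold change of −0.09 (edgeR adjusted p = 0.943).

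Muscle genes known to respond to denervation were read from a list of 21, all of which were tested. None passed the adjusted p of 0.05 in edgeR, DESeq2 or limma-voom. In edgeR 1 was lower at an unadjusted p under 0.05, 11 lay above and 10 below 0, and their median log2 fold change was 0.01. The list gives no direction of response for its genes, so the split and the median do not measure a response to denervation. The lower gene was *Chrna9*, a nicotinic receptor subunit, with 18, 19 and 21 reads in HET and 45, 38 and 26 reads in WT mice (log2 fold change −1.003, edgeR adjusted p = 0.613). *Myog*, myogenin, was at 11.1, 10.3 and 12.01 CPM in HET and at 14.0, 15.1 and 7.84 CPM in WT mice, with a log2 fold change of −0.14 (edgeR adjusted p = 0.944). The other smallest p-values were those of *Myh8*, the perinatal myosin (0.42), *Runx1* (0.39), *Ampd3* (0.16), *Sln* (−0.25) and *Gadd45a* (−0.33), all with edgeR adjusted p-values between 0.681 and 0.853. *Myh8*, at 38.3, 27.2 and 27.2 CPM in HET and 17.5, 28.9 and 23.0 CPM in WT mice, was called higher when the filter on low counts was left out.

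Markers of the cells around the fibers were read in the same libraries. Of 12 macrophage markers, 5 passed the adjusted p of 0.05 in edgeR as higher in HET mice (*Csf1r*, *Adgre1*, *C1qa*, *C1qb* and *Lyz2*), and all 12 lay above 0, from *Mrc1* at 0.33 to *Fcgr1* at 2.14. *Fcgr1* had few reads, with 13, 17 and 56 in HET and 2, 9 and 7 in WT mice. DESeq2 called 8 of the 12 and limma-voom 2. With all mice, 10 of the 12 were higher at an unadjusted p under 0.05 in edgeR. When HET mouse 1, HET mouse 3, WT mouse 1 or WT mouse 2 was left out, edgeR called 0 of all genes tested. In each of those fits, 10 macrophage markers were still higher at an unadjusted p under 0.05. The summed level of the macrophage markers was between 88.7 and 129 CPM in HET and between 51.3 and 57.5 CPM in WT mice. Of 11 fibroblast markers 1 passed, *Pi16*, and all 11 lay above 0, from *Ly6a* at 0.18 to *Col1a1* at 1.23, with sums between 2675 and 3781 CPM against 1280 and 2066 CPM. For fibroblasts, DESeq2 called 4 and limma-voom 0, and edgeR called 5 with the replicate number as a block, 7 without a filter on low counts, 3 without WT mouse 3, only *Lum* without HET mouse 2, and 0 without HET mouse 1 or 3 or WT mouse 1 or 2. All 9 tenocyte markers lay above 0, from *Scx* at 0.15 to *Chad* at 2.14, with sums between 440.0 and 740 CPM against 152 and 356 CPM. None of the tenocyte markers passed the adjusted p of 0.05 in edgeR or limma-voom, 2 did in DESeq2 and in edgeR 6 did with the replicate number as a block and 3 without a filter on low counts, while 7 were higher at an unadjusted p under 0.05 in edgeR.

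Schwann cells cap the nerve ending. None of their 14 tested markers passed the adjusted p of 0.05 in edgeR, DESeq2 or limma-voom and 2 were higher at an unadjusted p under 0.05 in edgeR, but *Ngfr* was called higher when the filter on low counts was left out. The log2 fold changes ran from −0.59 for *Gldn* to 1.06 for *Ngfr*, with a median of 0.05. Of 12 genes of motor nerve terminals only *Prph* (0.56), *Stmn2* (0.0033) and *Sv2a* (0.45) passed the filter on low counts and *Chat* had no read in any library, so that transcripts of the nerve ending were barely represented. Endothelial markers ranged from −0.18 for *Cdh5* to 0.22 for *Cldn5*, and smooth muscle markers from −0.08 for *Lmod1* to 0.60 for *Cnn1*. None of the endothelial or smooth muscle markers passed 0.05 in edgeR, adjusted or unadjusted.

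Most markers of the muscle lineage had fitted values below 0. Of 8 satellite cell markers, 7 lay below 0, from *Myf5* at −0.59 to *Cdh15* at 0.04, with sums between 113 and 120 CPM in HET and 127 and 134 CPM in WT mice. Of 8 slow fiber markers 7 lay below 0, from *Tnnc1* at −0.17 to *Myh7* at 0.01, and their sums overlapped between the genotypes. Of 10 fast fiber markers 9 lay below 0, from *Myh4* at −0.91 to *Myh2* at 0.14. The fast fiber sums also overlapped, between 47796 and 56846 CPM in HET and between 53629 and 55642 CPM in WT mice. For 4 of the 10 fast fiber markers, however, all HET values lay below all WT values. The same held for 2 of the 8 satellite cell and 1 of the 8 slow fiber markers, and for 884 of all 14696 genes tested. None of these 3 lists had a gene past the adjusted p of 0.05 in edgeR, DESeq2 or limma-voom, and at an unadjusted p under 0.05 in edgeR they had 1, 0 and 1 lower. *Myh4*, the myosin of type IIB fibers, varied widely between mice, at 44.7, 2042 and 167 CPM in HET mice 1 to 3 and at 1470, 1774 and 976 CPM in WT mice 1 to 3. The part of these cell type and fiber values in the junction genes was not tested.

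**Figure D5:**
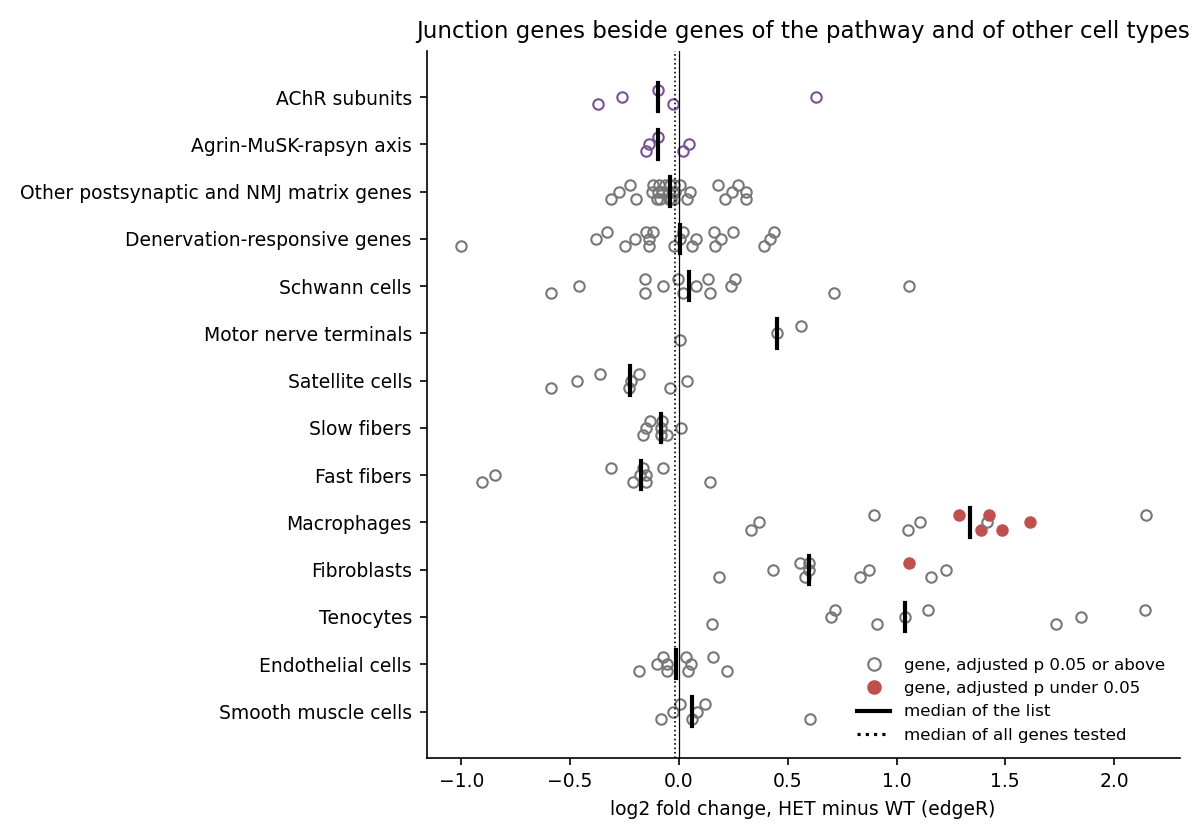
Log2 fold change of HET minus WT (edgeR) for each gene (circle) of the junction genes, the pathway lists and the cell type lists, filled red where the adjusted p was under 0.05, with the median of each list (black bar) and of all genes tested (dotted line). No junction, synapse or denervation gene is filled, and the medians of macrophages (1.34), fibroblasts (0.60) and tenocytes (1.04) lie to the right.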

How the data were processed

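Poly-A RNA from the soleus of 3 HET and 3 WT mice was sequenced as stranded single-end libraries. The authors aligned the reads to GRCm38.p6 with STAR 2.7.3a and deposited raw counts per gene from featureCounts 2.0.3, without normalization. They also deposited a normalized signal for 16247 genes, in which each library's counts are scaled by its DESeq2 size factor (0.773 to 1.42), used here to find the members and as an alternative scaling of levels. The third deposited file holds the authors' own DESeq2 comparison and was not used. There were 0 value columns without a sample.

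The raw counts were tested in R 4.3.3 with edgeR 4.0.16: TMM factors, filterByExpr with a minimum count of 10 (14696 genes kept), the robust quasi-likelihood test with genotype as the only term, two-sided, and Benjamini-Hochberg adjustment over all genes tested at 0.05. Standard errors were the size of the log2 fold change over the square root of F, and intervals used the test's degrees of freedom at 95%. RPKM divided CPM by the exon bases of the count table. Permutation tests were exact, in SciPy 1.17.1. Sequences came from the RefSeq promoter table of GRCm38.p6. Exon overlaps of the members came from the exons of the count table. Transcripts, their lengths and the overlaps of the printed stretches came from GENCODE M21. DESeq2 1.42.0, limma-voom (limma 3.58.1), other scalings and filters, a length trend, a replicate block and leaving out each mouse were the alternatives. The steps were tested on simulated data.

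Libraries held 26790075 to 50368796 reads on genes. Reads carry no molecular identifiers, so counting intervals cover counting error only. The labels give numbered replicates, so p-values measure the spread between these libraries. The 10 junction genes and the lists were chosen with earlier results of these data known. Beside the members, *Mustn1* and the sex-linked checks, the genes named were those past the threshold in a list, the 6 with the smallest p in each of the synapse and denervation lists, and the ends of each cell type list. *Ache*, *Myog*, *Sv2a* and *Chat* were named after their values were seen. 164 of 165 listed genes had an entry in the count table, and 1 was not analysed here.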

Additional observations from a re-analysis of the deposited data

How the results depend on the processing

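None of the 10 junction genes passed the adjusted threshold in any of the 17 alternative fits, nor did a gene of the synapse list, and of the denervation list only *Myh8* did, without a filter on low counts, a setting in which the Schwann cell marker *Ngfr* was called too. The fitted direction turned in 9 cases. *Chrnd* went to 0.0020 with upper quartile factors, 0.051 with library size only, and above 0 without HET mouse 2 or 3 or WT mouse 1 or 3, in a leave-one-out range of −0.15 to 0.053. *Agrn* turned without HET mouse 3 (range −0.022 to 0.088), *Lrp4* without WT mouse 2 (range −0.065 to 0.12) and *Dok7* without WT mouse 3 (range −0.25 to 0.0014). The number of all genes called higher and lower (21 and 1) was 386 and 18 without a filter on low counts, 6 and 0 with a non-robust dispersion, 3 and 0 with limma-voom, 200 and 10 with DESeq2, and between 0 and 77 and between 0 and 6 with 1 mouse left out. Macrophage markers called higher (5) numbered between 0 and 7 and fibroblast markers (1) between 0 and 3 with 1 mouse left out. *Mustn1* lost its call with a non-robust dispersion (−0.96) and with limma-voom (−0.99) and lay between −1.09 and −0.88 with 1 mouse left out. The cause was not tested. RPKM by transcript length were 16.2 for *Chrnb1*, 0.188 for *Chrng*, 4.26 for *Agrn*, 4.43 for *Lrp4*, 6.10 for *Musk*, 10.2 for *Dok7* and 19.7 for *Rapsn*, in the same order.

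The genotypes share replicate numbers 1 to 3. Deviations of same-numbered mice correlated at 0.20, −0.0058 and −0.03 over 14696 genes, so the numbers were not taken as pairs, and not every mouse correlated best with its own number. A replicate block gave 114 genes higher and 2 lower, and 140 and 2 with the length trend removed too. With the block 0 junction genes were called, and *Chrna1* and *Chrne* had log2 fold changes of −0.26 and −0.38. With 3 complete pairs the block cannot change the differences of the subunit shares, and their exact sign-flip p-values were between 0.25, the smallest that 3 pairs can give, and 0.5.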
